A study of Mus musculus with 6 samples.

Results

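Transcripts of 10 genes of brown and white adipocytes were followed in bulk RNA sequencing of the mouse thoracic aorta, which lies within perivascular fat. The genes were Ucp1, Cidea, Elovl3, Dio2 and Ppargc1a, which are used as brown fat genes, and Adipoq, Plin1, Fabp4, Lep and Pparg, which mark adipocytes in general. They were taken by name, and each matched 1 of the 52636 rows of the count table by its Ensembl identifier. The rule was a list of names with no threshold on a measured value, although the names were picked with earlier results of these data known. All 10 had counts and a DESeq2 adjusted p-value, among 25485 genes with a count and 17070 with an adjusted p-value.

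The 6 libraries came from mice 12 weeks of age, 4 from C57BL/6J mice that had no treatment (WT) and 2 from mice homozygous for floxed alleles of Tgfbr1 (Tgfbr1f/f) and Tgfbr2 (Tgfbr2f/f) that also carried Myh11-CreERT2 and the reporter mT/mG (KO). The KO mice had tamoxifen by intraperitoneal injection, 2 mg a day for 5 days from 11 weeks of age, so that Cre recombinase, expressed from the smooth muscle gene Myh11, was active in smooth muscle cells and deleted parts of both TGF-β receptor genes there. The WT mice lacked the floxed alleles, the Cre transgene, the mT/mG reporter and the tamoxifen, so genotype and treatment cannot be told apart. Libraries are named WT-1 to WT-4, KO-1 and KO-2 by the codes of the table's columns. The match of columns to groups rests on those codes, and KO-1 and KO-2 stand throughout for the libraries labelled so. Tgfbr1 had normalised counts of 3858, 3999, 4763 and 5420 in WT, 5780 in KO-1 and 4568 in KO-2. Tgfbr2 had 5327, 5643, 6948 and 7042 in WT, 5784 in KO-1 and 5937 in KO-2. Neither targeted gene was lower in KO beyond the spread of WT (DESeq2 adjusted p = 0.63 and 0.838). Counts over a whole gene also hold exons outside the deleted parts, so they do not check the labels.

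Brown adipocytes burn fatty acids and give off heat through Ucp1, a carrier that lets protons back into the mitochondrial matrix without making ATP. White adipocytes store triglyceride in a large lipid droplet coated by Plin1 and secrete hormones such as adiponectin (Adipoq) and leptin (Lep). Fat around the mouse thoracic aorta is known to resemble brown fat, while fat around the abdominal aorta is closer to white fat. Pparg is the nuclear receptor needed to form and keep both kinds of adipocyte. For protein work the study describes cutting loose fat away from the excised aortas and keeping the adventitia, while its account of RNA isolation does not mention such trimming.

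RefSeq promoter windows on GRCm38.p6, from 250 bases before to 50 after the transcript start, were matched for 7 of the 10 genes. The windows of 4 genes are shown, 3 brown fat genes that differed in how they moved and Adipoq as the general adipocyte gene. Capitals mark AGGTCA, a nuclear receptor half-site, and TGACG, a half-site bound by cAMP-responsive factors, each searched on both strands. The Ucp1 window is chr8:83290098-83290397 on the plus strand, the Dio2 window chr12:90738989-90739288 on the minus strand, the Ppargc1a window chr5:51567676-51567975 on the minus strand and the Adipoq window chr16:23146286-23146585 on the plus strand.
Ucp1: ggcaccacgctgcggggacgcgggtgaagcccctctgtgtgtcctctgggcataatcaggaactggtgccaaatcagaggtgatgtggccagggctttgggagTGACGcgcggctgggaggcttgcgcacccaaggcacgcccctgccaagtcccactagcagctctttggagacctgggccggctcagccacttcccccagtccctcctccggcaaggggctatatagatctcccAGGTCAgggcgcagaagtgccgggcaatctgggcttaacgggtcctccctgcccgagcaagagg
Dio2: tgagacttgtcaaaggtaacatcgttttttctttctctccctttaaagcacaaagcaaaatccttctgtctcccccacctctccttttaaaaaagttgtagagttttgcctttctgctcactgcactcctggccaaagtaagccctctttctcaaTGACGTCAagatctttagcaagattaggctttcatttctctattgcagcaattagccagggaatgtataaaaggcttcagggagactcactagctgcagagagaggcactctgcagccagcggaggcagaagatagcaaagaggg
Ppargc1a: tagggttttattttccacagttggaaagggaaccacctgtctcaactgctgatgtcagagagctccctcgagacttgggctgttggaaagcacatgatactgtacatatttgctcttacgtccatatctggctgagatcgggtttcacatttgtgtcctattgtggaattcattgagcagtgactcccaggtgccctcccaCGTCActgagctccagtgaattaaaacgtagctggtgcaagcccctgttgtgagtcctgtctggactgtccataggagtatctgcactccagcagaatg
Adipoq: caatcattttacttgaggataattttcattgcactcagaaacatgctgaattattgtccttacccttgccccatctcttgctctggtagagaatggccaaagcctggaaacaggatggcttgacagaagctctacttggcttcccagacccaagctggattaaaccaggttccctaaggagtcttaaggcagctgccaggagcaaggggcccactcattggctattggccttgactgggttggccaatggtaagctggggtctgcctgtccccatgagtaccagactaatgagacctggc
Ucp1 held 1 match of each motif. In Dio2, 2 matches of TGACG on opposite strands overlapped in 1 palindrome, and Ppargc1a held 1 match on the opposite strand. Adipoq held neither motif. Of 32851 promoter windows of the same length, 16.3% held AGGTCA and 20.8% held TGACG, so a match is common and is given as a description only. The direct repeat of this half-site with 1 base between, which also counts as an AGGTCA match and was in 0.0396% of all windows, was in none of the windows matched for the 10 genes. The palindrome TTGCGCAA of C/EBP factors, in 0.183% of all windows, was found in the Lep window. The Dio2 window lies wholly upstream of the GENCODE gene model.

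Libraries differed in depth, mitochondrial share and cell type markers, and only some of these differences followed the groups. Total counts ran from 19650983 to 28860598. Mitochondrially encoded transcripts took between 2.62% and 4.44% of counts in WT, 3.38% in KO-1 and 11.7% in KO-2, with no 95% Wilson interval wider than 0.0284 percentage points. Summed normalised counts of 5 red blood cell markers were 859 to 5990 in WT, 11076 in KO-1 and 61684 in KO-2, with all 5 markers above every WT library in both. The 6 mesothelial markers summed to 228 to 451 in WT, 899 in KO-1 and 2460 in KO-2, with all 6 above every WT library in both. The 8 cardiac muscle markers summed to 3173 to 4406 in WT, 24455 in KO-1 and 4215 in KO-2, with 8 above every WT library in KO-1 and 3 in KO-2. Of all tested genes, 31.3% were above every WT library in KO-1, 32.8% in KO-2 and 17.9% in both. The 3 cardiac markers in KO-2 were thus near the share over all genes. The 7 skeletal muscle markers summed to 171 to 244 in WT, 672 in KO-1 and 203 in KO-2. Of these, 1 was above every WT library in KO-1 and 2 in KO-2, and Myh1 was at 0 in every library. Smooth muscle markers, the cell type the aorta should hold most of, summed to 881200 to 1039470 in WT, 835575 in KO-1 and 994281 in KO-2, with none of the 7 at 0 in all libraries. None of the markers of the other lists was at 0 in all libraries. Fibroblast markers summed to 110129 to 123504 in WT, 139195 in KO-1 and 164833 in KO-2. Of these 7 markers, 5 were above every WT library in KO-1 and 6 in KO-2. The part of these differences in the results on fat genes was not tested.

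**Figure D1:**
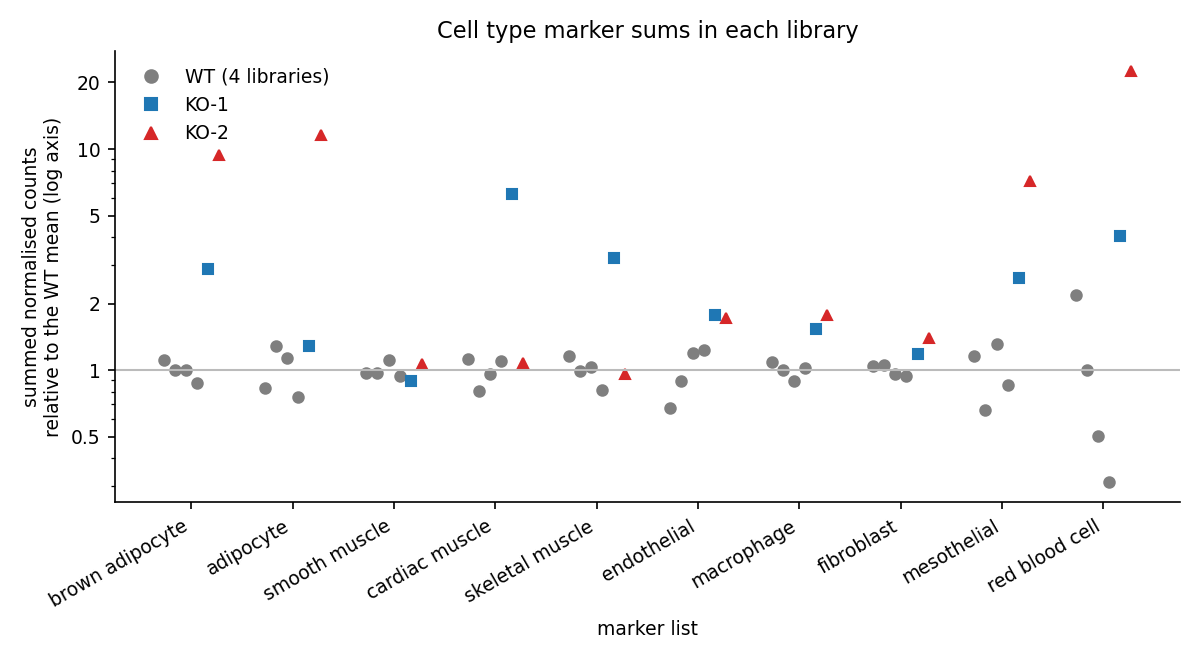
Summed normalised counts of 10 marker lists in each library, divided by the WT mean, on a log axis; circles are WT, squares KO-1 and triangles KO-2. KO-2 stood highest for brown adipocyte, adipocyte, mesothelial, red blood cell, macrophage and fibroblast markers. KO-1 stood highest for cardiac (6.23 times the WT mean), skeletal muscle (3.2 times) and, narrowly over KO-2, endothelial markers. The brown adipocyte and adipocyte lists are the 10 genes of this report, so their sums repeat the same values and are not separate evidence. Of the 7 skeletal muscle markers, 1 was above every WT library in KO-1.

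The 10 fat genes together had a summed CPM (counts scaled to 1000000 per library) of 152, 202, 180 and 135 in WT-1 to WT-4. The sum was 329 CPM in KO-1 (95% Wilson interval 322 to 335) and 1768 in KO-2 (1750 to 1787). The highest WT share was that of WT-2, with an interval of 197 to 208, so each KO library stood above all WT libraries. In KO-1 much of the sum came from 1 gene, Dio2, with 4155 of the 9485 counts, against 906 of 5222 in WT-2. Such intervals cover counting error only. In bulk RNA, more cells of a type and more RNA per cell cannot be told apart.

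Ucp1, the thermogenic proton carrier (ENSMUSG00000031710.4, GRCm38 chromosome 8, 83290352 to 83298452), had normalised counts of 123, 101, 123 and 0 in WT-1 to WT-4, 40.2 in KO-1 and 6861 in KO-2. The groups overlapped, since KO-1 lay below 3 WT libraries and KO-2 above all. A count of 0 in WT-4 allows a normalised count of up to 3.13. KO-2 was 79.2 times the WT mean of 86.6 ± 58.7 (SD, n = 4), and KO-1 was 0.464 times that mean. Over both KO libraries the log2 fold change was 5.32 ± 2.33 (SE), which did not pass the test (DESeq2 adjusted p = 0.137), and the adjusted p-values of 14 alternative fits ran from 0.0519 to 0.888.

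Elovl3, an elongase of very long chain fatty acids that brown fat expresses in the cold (ENSMUSG00000038754.4, chromosome 19, 46131897 to 46135694), had 0 counts in WT-1, WT-2, WT-3 and KO-1 and 3 counts in WT-4. In KO-2 it had 157 counts, a normalised count of 193. It was therefore at the floor of 3 counts in every library but KO-2, which stood at least 63.7-fold higher than WT held at 3 counts per library. The test over both KO libraries gave a DESeq2 adjusted p of 0.31, with 0.0594 to 0.735 in the 12 alternative fits that gave one.

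Cidea, a lipid droplet protein abundant in brown fat (ENSMUSG00000024526.8, chromosome 18, 67343604 to 67367785), had 347, 309, 308 and 321 in WT, 395 in KO-1 and 2630 in KO-2. Both KO libraries exceeded every WT library, KO-1 by little and KO-2 by far. The WT mean was 321 ± 18.3 (SD, n = 4), which made KO-1 1.23 times and KO-2 8.19 times WT. The KO over WT difference was 2.24 ± 0.76 (SE) in log2 units (DESeq2 adjusted p = 0.0341, from 3.48e-49 to 0.589 in the 14 alternatives).

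Dio2, the enzyme that turns thyroxine into its active form within the cell (ENSMUSG00000007682.6, chromosome 12, 90724552 to 90738438), had 879, 814, 777 and 729 in WT, 3153 in KO-1 and 2359 in KO-2. Both KO libraries exceeded all WT libraries, and Dio2 was the 1 gene of the 10 with a higher level in KO-1 than in KO-2. KO-1 was 3.94 times and KO-2 2.95 times the WT mean of 799.5 ± 63.2 (SD, n = 4). KO exceeded WT by 1.79 ± 0.19 (SE) on the log2 scale (DESeq2 adjusted p = 8.88e-18). Dio2 passed the test in every one of the 14 alternative fits, with adjusted p-values from 7.16e-23 to 0.00193. It also passed with each KO library set alone against WT (DESeq2 adjusted p = 7.16e-23 for KO-1 and 1.5e-13 for KO-2). An antisense transcript, Gm26512, overlaps 100 of the 5815 exon bases of Dio2 and had at most 17 counts in any library.

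Ppargc1a, a coactivator that turns on mitochondrial genes (ENSMUSG00000029167.13, chromosome 5, 51454250 to 51567726), had 129, 116, 125 and 117 in WT, 225 in KO-1 and 425 in KO-2. The WT libraries lay within a narrow range and both KO libraries lay above it. KO-1 was 1.85 times and KO-2 3.5 times the WT mean of 121.5 ± 6.14 (SD, n = 4). Over both KO libraries the log2 fold change was 1.42 ± 0.31 (SE) (DESeq2 adjusted p = 0.000233, from 8.93e-08 to 0.154 in the 14 alternatives).

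Adipoq, the adipocyte hormone adiponectin (ENSMUSG00000022878.5, chromosome 16, 23146536 to 23158028), had 196, 397, 309 and 171 in WT, 330 in KO-1 and 2578 in KO-2. KO-1 fell inside the WT range and KO-2 was 9.62 times the WT mean of 268 ± 105 (SD, n = 4). The KO over WT difference was 2.44 ± 0.89 (SE) in log2 units and missed the threshold (DESeq2 adjusted p = 0.057, from 4.76e-12 to 0.796 in the 14 alternatives).

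Plin1, the coat protein of the adipocyte lipid droplet (ENSMUSG00000030546.14, chromosome 7, 79720218 to 79732903), had 202, 457, 277 and 193 in WT, 435 in KO-1 and 3771 in KO-2. KO-1 lay just under WT-2, the highest WT library. KO-2 was 13.4 times the WT mean of 282 ± 122 (SD, n = 4). KO exceeded WT by 2.90 ± 0.93 (SE) on the log2 scale (DESeq2 adjusted p = 0.0224, from 2.25e-15 to 0.523 in the 14 alternatives).

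Fabp4, a fatty acid carrier of adipocytes that capillary endothelium and macrophages also express (ENSMUSG00000062515.3, chromosome 3, 10204088 to 10208576), had 1699, 2346, 2245 and 1527 in WT, 2424 in KO-1 and 23126 in KO-2. It was the most abundant of the 10 in KO-2, where it reached 11.8 times the WT mean of 1954 ± 402 (SD, n = 4), while KO-1 was barely above WT-2. Over both KO libraries the log2 fold change was 2.71 ± 0.89 (SE) (DESeq2 adjusted p = 0.0271, from 1.34e-36 to 0.598 in the 14 alternatives). The 8 endothelial markers summed to 12047 to 22210 in WT, 31966 in KO-1 and 31039 in KO-2, and the 8 macrophage markers to 8355 to 10151 in WT, 14372 in KO-1 and 16588 in KO-2. Their part in the level of Fabp4 was not tested.

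Lep, the satiety hormone leptin (ENSMUSG00000059201.12, chromosome 6, 29060220 to 29073877), had 16.5, 29.6, 48.9 and 17.8 in WT, 27.3 in KO-1 and 147.5 in KO-2. KO-1 lay among the WT libraries and KO-2 was 5.23 times the WT mean of 28.2 ± 15 (SD, n = 4). The KO over WT difference was 1.62 ± 0.69 (SE) in log2 units and did not pass the test (DESeq2 adjusted p = 0.121, from 0.0115 to 0.988 in the 14 alternatives).

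Pparg, the nuclear receptor of adipocyte formation (ENSMUSG00000000440.12, chromosome 6, 115360951 to 115490399), had 54.9, 121, 89.9 and 71 in WT, 168 in KO-1 and 623 in KO-2. Both KO libraries exceeded every WT library, at 1.99 and 7.4 times the WT mean of 84.3 ± 28.5 (SD, n = 4). KO exceeded WT by 2.22 ± 0.47 (SE) on the log2 scale (DESeq2 adjusted p = 9.76e-05, from 1.36e-08 to 0.277 in the 14 alternatives).

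**Figure D2:**
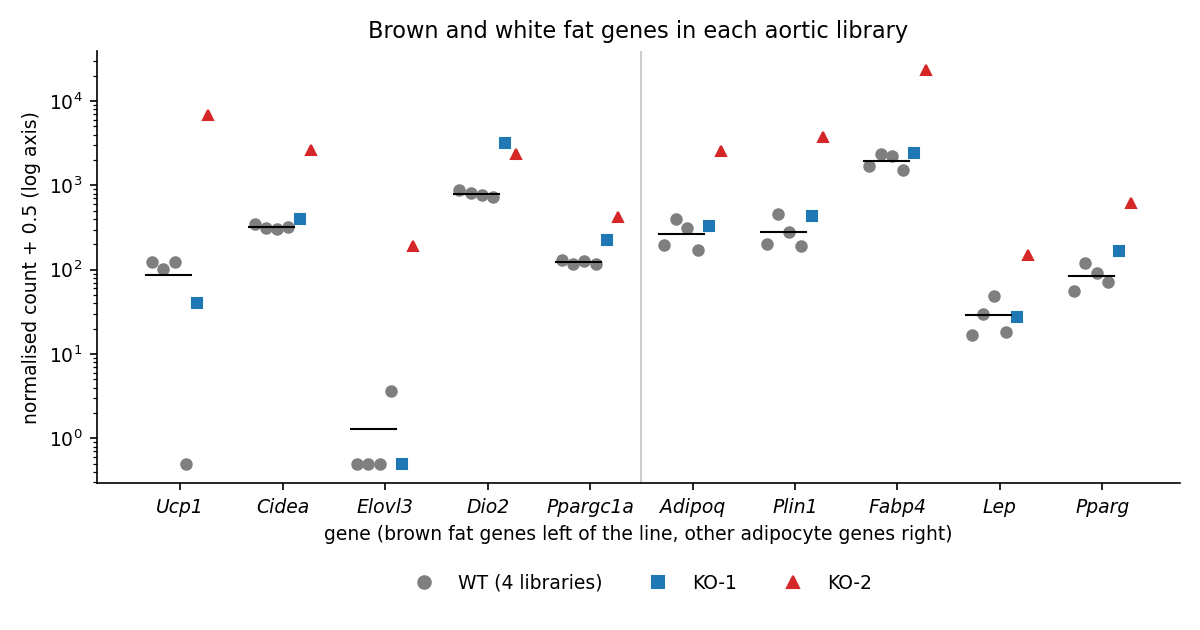
Normalised counts plus 0.5 of the 10 genes in each library on a log axis, with brown fat genes left of the vertical line and a short bar at the WT mean; circles are WT, squares KO-1 and triangles KO-2. KO-2 lay above every WT library for all 10 genes, and KO-1 did so for 5 (Cidea, Dio2, Ppargc1a, Fabp4 and Pparg).

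In the joint comparison, 6 of the 10 genes were called higher in KO, with a DESeq2 Benjamini-Hochberg adjusted p under 0.05 and a change of more than 2-fold. They were Cidea, Dio2, Ppargc1a, Plin1, Fabp4 and Pparg, against 3.54% of all tested genes called higher. The adjusted p alone gave the same 6 genes, against 5.71% of all tested genes. None was called lower, where 2.1% of tested genes were called, and none was lower at an unadjusted p under 0.05 or by edgeR. Over the 10 genes the median log2 fold change was 2.34, against 0.01 over all genes tested. Counts of calls moved with single libraries. Without WT-1, WT-3 or WT-4 there were 3 called (Dio2, Ppargc1a and Pparg), as with edgeR, whose filter dropped Elovl3, and without WT-2 there were 4, Plin1 being the addition. Without KO-1 there were 8 and without KO-2 there was 1, Dio2.

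The KO libraries were therefore also set against WT separately, a test in which the lone library is assumed to vary as the WT libraries do. With KO-1 alone, 1 of the 10 genes was called higher, against 1.93% of all tested genes. This was Dio2, while Ppargc1a (DESeq2 adjusted p = 0.0558) and Pparg (0.277) did not pass, and 3 of the 10 were higher at an unadjusted p under 0.05. With KO-2 alone, 8 of the 10 were called higher, against 4.72% of all tested genes. Ucp1 and Elovl3 were not among them (DESeq2 adjusted p = 0.0923 and 0.234), but edgeR called all 10 (adjusted p = 0.0141 for Ucp1 and 0.00525 for Elovl3). With edgeR, KO-1 alone gave the same count of 1.

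KO-2 was above every WT library for 10 of 10 genes, where 32.8% of all tested genes were, and KO-1 for 5 of 10, where 31.3% were. Both KO libraries were above every WT library for 5 of 10 genes, against 17.9% of tested genes. The median log2 difference from the WT mean over the 10 genes was 0.31 in KO-1 and 3.15 in KO-2 (0.31 and 3.03 without Elovl3, which was at the floor in WT and KO-1), against 0.00 and -0.02 over all tested genes. KO-2 exceeded KO-1 for 9 of the 10 genes, by 171 times for Ucp1, 9.54 times for Fabp4, 8.67 times for Plin1, 7.81 times for Adipoq, 6.65 times for Cidea and 5.4 times for Lep. The ratio was smaller for Pparg (3.72) and Ppargc1a (1.89), and for Dio2 KO-2 had 0.748 times the level of KO-1. With 1 library on each side, these ratios have no replicate check. The share of all tested genes with KO-2 above KO-1 was not counted.

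**Figure D3:**
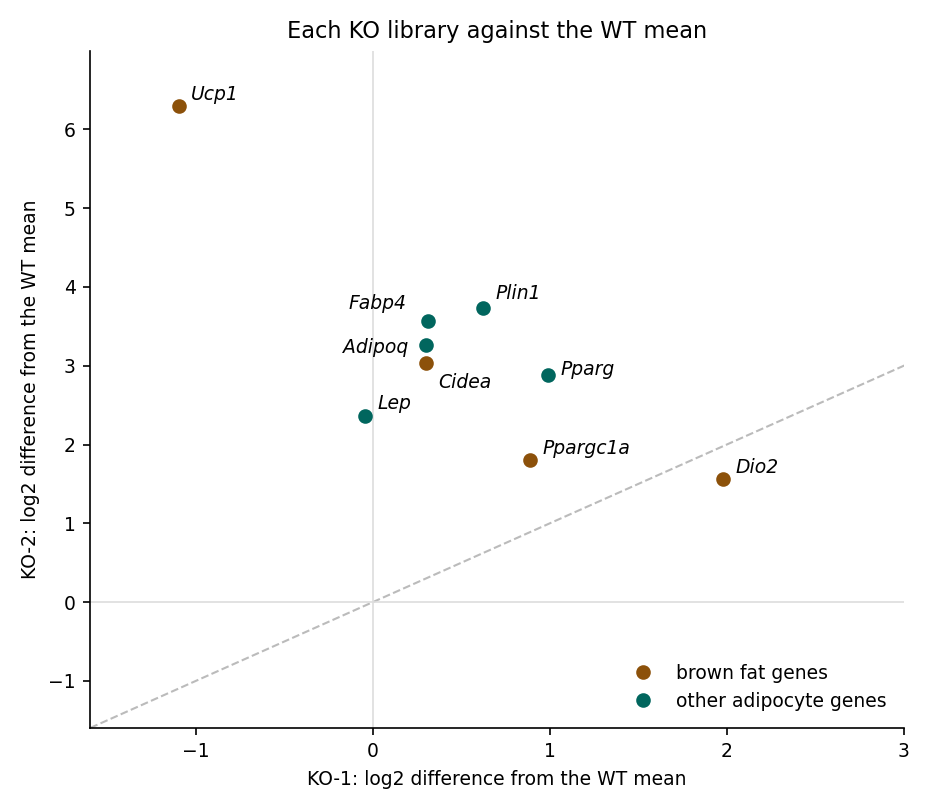
Log2 difference from the WT mean in KO-1 (horizontal) and KO-2 (vertical) for the 9 genes above the floor in WT, with a dashed line where both would be equal. Dio2 alone lies below the line, and Ucp1 lies farthest from it, at -1.10 in KO-1 and 6.30 in KO-2.

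Relative to Adipoq within the same library, the genes differed in their position in KO-2 against the WT range. Adipoq had at least 164 counts in each library. Fabp4 had 8.69, 5.91, 7.28 and 8.91 counts per Adipoq count in WT, 7.34 in KO-1 and 8.97 in KO-2. Plin1 had 1.03, 1.15, 0.896 and 1.13 in WT, 1.32 in KO-1 and 1.46 in KO-2. Cidea had 1.78, 0.778, 0.997 and 1.87 in WT, 1.2 in KO-1 and 1.02 in KO-2. Cidea in KO-2 thus lay inside the WT range, Fabp4 was just above its upper end, and Plin1 was above it in both KO libraries.

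Ucp1 behaved otherwise, with 0.629, 0.253, 0.398 and 0 counts per Adipoq count in WT, 0.122 in KO-1 and 2.66 in KO-2. Elovl3 had 0.0749 in KO-2, 0.0183 in WT-4 and 0 in the other libraries. Dio2 went the other way between the KO libraries, with 4.49, 2.05, 2.52 and 4.26 in WT, 9.55 in KO-1 and 0.915 in KO-2. Ppargc1a had 0.657, 0.292, 0.405 and 0.683 in WT, 0.683 in KO-1 and 0.165 in KO-2. Pparg had between 0.281 and 0.415 in WT, 0.508 in KO-1 and 0.242 in KO-2, and Lep had between 0.0747 and 0.159 in WT, 0.0828 in KO-1 and 0.0572 in KO-2. Against Adipoq, KO-2 was thus the highest library for Ucp1, Elovl3, Plin1 and, by a small margin, Fabp4, and the lowest for Dio2, Ppargc1a, Pparg and Lep. These ratios are descriptions of single libraries.

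**Figure D4:**
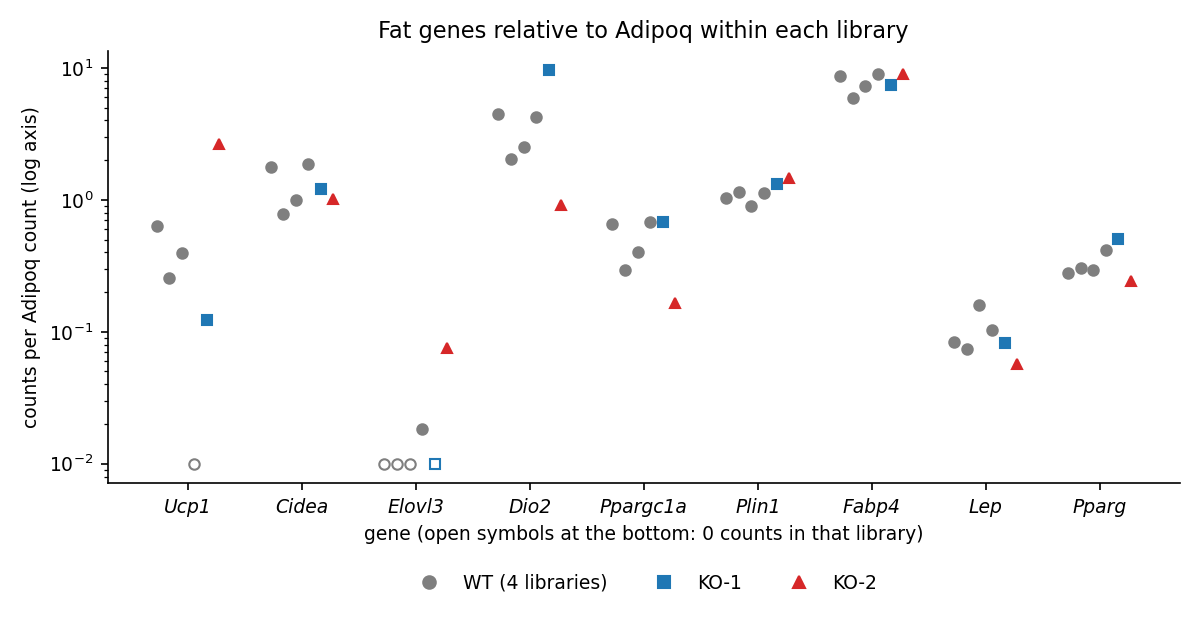
Counts of 9 genes per Adipoq count in the same library, on a log axis; circles are WT, squares KO-1 and triangles KO-2, and open symbols at the bottom stand for 0 counts. Plin1 and Fabp4 stayed close together across libraries, while Ucp1 in KO-2 (2.66) and Dio2 in KO-1 (9.55) stood above all WT libraries.

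Levels between genes were compared as CPM per kilobase of exon. In WT the order was Fabp4 with 18.5 ± 3.87, Cidea with 12.2 ± 0.622, Adipoq with 8.24 ± 3.29 and Dio2 with 5.82 ± 0.427 (SD, n = 4 each). Plin1 followed with 2.58 ± 1.15, Ucp1 with 2.23 ± 1.51, Pparg with 1.21 ± 0.424, Ppargc1a with 0.781 ± 0.0267, Lep with 0.356 ± 0.187 and Elovl3 with 0.0170 ± 0.0340. Neighbours in this order overlapped between libraries from Cidea to Adipoq, from Adipoq to Dio2, and in each step from Plin1 through Ucp1 and Pparg to Ppargc1a. In KO-1 Dio2 (24.8) and Fabp4 (24.7) led the order, ahead of Cidea (16.2) and Adipoq (10.9), and Ucp1 stood at 1.12. In KO-2 Fabp4 (213) was followed by Ucp1 (174), Cidea (97.7), Adipoq (77.3), Plin1 (33.6) and Dio2 (16.8). Ucp1 was the sixth of the 10 genes in WT, the eighth in KO-1 and the second in KO-2.

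Other genes of adipocyte biology were read from 11 lists, which held 106 genes besides the 10, 102 of them with a count. Of these, 35 were called higher and 0 lower by DESeq2, where 3.54% and 2.1% of all tested genes were, with 5 lower at an unadjusted p under 0.05, and edgeR called 18 higher and 0 lower. KO-2 exceeded KO-1 for 77 of the 102 and fell below it for 25, again without a count over all tested genes to compare. KO-2 was above every WT library for 76, where 32.8% of all tested genes were, and KO-1 for 51, where 31.3% were. The 35 called higher became 21, 27, 22 and 25 with WT-1, WT-2, WT-3 or WT-4 left out, 51 with KO-2 alone and 6 with KO-1 alone.

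Of 13 further brown fat genes, 6 were called higher, 2 with KO-1 alone and 7 with KO-2 alone, with a median log2 fold change of 2.34 over the 12 with an adjusted p. Cox7a1, a muscle and brown fat subunit of cytochrome c oxidase, rose from 28.3 ± 6.84 (SD, n = 4) to 159 in KO-1 and 501 in KO-2 (log2 fold change 3.54 ± 0.47, SE, DESeq2 adjusted p = 7.32e-12). The potassium channel Kcnk3 rose from 201 ± 63.4 to 640 and 1393 (adjusted p = 5.95e-09). The β3 adrenergic receptor Adrb3, which carries the sympathetic signal to adipocytes, rose from 73.7 ± 29 to 125 and 623 (adjusted p = 0.000278). Also called higher were Cox8b, from 48.9 ± 19.3 to 120 and 1238 (DESeq2 adjusted p = 0.00321), and Otop1, from 15.2 ± 6.09 to 24.3 and 557 (0.0068). Slc36a2 was called as well, from 113 ± 51.3 to 201 and 1497 (DESeq2 adjusted p = 0.019). Some genes of the list did not rise over both KO libraries, with 0 called lower and 1 lower at an unadjusted p under 0.05. Prdm16 had 2789 ± 1441 in WT, 2745 in KO-1 and 1359 in KO-2 (DESeq2 adjusted p = 0.748). Ebf2 had 99 ± 56.5, 83.5 and 122 (DESeq2 adjusted p = 0.974), and P2rx5 had 808 ± 28.7, 662 and 500 (DESeq2 adjusted p = 0.109). Cox7a1 and Kcnk3 were the genes of this list that also passed with KO-1 alone (DESeq2 adjusted p = 0.000153 and 0.00168). Cox7a1 is also a gene of heart and skeletal muscle, whose summed markers were high in KO-1. Of the 7 skeletal muscle markers, 1 was above every WT library there. The part of heart and skeletal muscle in the level of Cox7a1 was not tested.

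Of 10 white fat and adipokine genes, 5 were called higher, with a median log2 fold change of 1.92 over the 8 with an adjusted p. With KO-1 alone 1 was called and with KO-2 alone 6, and without WT-1 there were 3. Npr3, the clearance receptor for natriuretic peptides, rose from 527 ± 55.7 (SD, n = 4) to 1635 in KO-1 and 1475 in KO-2 (DESeq2 adjusted p = 5.59e-14). Like Dio2 it was higher in KO-1 than in KO-2 and passed with each alone (DESeq2 adjusted p = 4.08e-11 and 5.07e-09). The amino acid transporter Slc7a10 rose from 13.9 ± 3.44 to 47.8 and 122 (DESeq2 adjusted p = 0.000367), and the imprinted gene Mest from 37.9 ± 7.63 to 91.8 and 116 (DESeq2 adjusted p = 0.00779).

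Among 4 beige fat genes DESeq2 called 0 in either direction, as did edgeR, and 1 (Tmem26) was lower at an unadjusted p under 0.05. Tmem26 had 145 to 214 in WT, 138 in KO-1 and 91 in KO-2, and was called lower with KO-2 alone (DESeq2 adjusted p = 0.0447). Tbx1 had 126 to 176 in WT, 115 in KO-1 and 125 in KO-2. Tnfrsf9 had 0 counts in every library, and Cited1 had at most 8.35 in any.

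Among 10 adipogenic transcription factors besides Pparg, DESeq2 and edgeR again called 0, with 1 higher and 1 lower at an unadjusted p under 0.05. Srebf1, a regulator of lipid synthesis genes, had a mean of 1567 ± 297 (SD, n = 4) in WT, 964 in KO-1 and 1095 in KO-2 (DESeq2 adjusted p = 0.0501). Ppara, the relative of Pparg that drives fatty acid oxidation genes, had 81.8 ± 3.12 in WT, 140 and 130 (DESeq2 adjusted p = 0.121), and the oxysterol receptor Nr1h3 had 182 ± 48.2, 187 and 327 (DESeq2 adjusted p = 0.418). Cebpa, the factor that acts with Pparg in adipocyte formation, was looked up after its values were seen. It had 303 to 475 in WT, 536 in KO-1 and 125 in KO-2, so that it was highest of all libraries in KO-1 and lowest in KO-2 (log2 fold change -0.11, DESeq2 adjusted p = 0.92 over both; 0.000533 with KO-2 alone).

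Of 11 lipid droplet and lipolysis genes, 3 were called higher and 1 passed the adjusted p lower without reaching 2-fold. DESeq2 called 0 higher without WT-1, WT-2 or WT-3 and 1 without WT-4, with 5 higher at an unadjusted p under 0.05 each time, and edgeR called 1 over all libraries. With KO-2 alone 5 were called higher. With KO-1 alone DESeq2 and edgeR called 0 higher, with 0 higher at an unadjusted p under 0.05. Plin5, a perilipin of oxidative tissues, rose from 5.42 ± 3.97 (SD, n = 4) to 19 in KO-1 and 206 in KO-2 (DESeq2 adjusted p = 0.000101), and Plin2 from 624 ± 45.5 to 697 and 1852 (DESeq2 adjusted p = 0.0166). Mgll, the lipase of the last step of lipolysis, fell from 6910 ± 999.8 to 4462 and 2844 (log2 fold change -0.92, DESeq2 adjusted p = 0.00117). Plin5 is also a gene of heart muscle, whose summed markers were above WT in KO-1 and within the WT range in KO-2.

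Of 13 genes of lipid uptake and triglyceride synthesis, 5 were called higher, 1 with KO-1 alone and 9 with KO-2 alone. The fatty acid transporter Cd36 rose from 390 ± 126 (SD, n = 4) to 1726 in KO-1 and 3381 in KO-2 (DESeq2 adjusted p = 6.61e-14) and was the gene called with KO-1 alone (DESeq2 adjusted p = 4.31e-06). Lipoprotein lipase, Lpl, rose from 2772 ± 500.04 to 4420 and 12981 (DESeq2 adjusted p = 3.89e-05). Gpihbp1, which anchors that lipase to capillary endothelium, rose from 10.1 ± 4.54 to 22.8 and 162 (DESeq2 adjusted p = 0.000946). Summed cardiac muscle, endothelial and macrophage markers also stood above WT in KO-1. Their part in the level of Cd36 was not tested.

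Of 9 fatty acid synthesis genes, 7 were called higher. These calls rested on having all 4 WT libraries, since 2, 3, 2 and 3 were called without WT-1, WT-2, WT-3 or WT-4. All 9 were called with KO-2 alone. With KO-1 alone DESeq2 and edgeR called 0, and 0 had an unadjusted p under 0.05. The elongase Elovl6 rose from 152 ± 40.6 (SD, n = 4) to 235 in KO-1 and 3330 in KO-2 (DESeq2 adjusted p = 0.00811). Acaca, which makes malonyl-CoA, rose from 1636 ± 173 to 2008 and 7459 (DESeq2 adjusted p = 0.000744), and Acly, which supplies acetyl-CoA, from 2274 ± 132 to 2527 and 8891 (DESeq2 adjusted p = 0.00321). With edgeR 1 of the 9 was called over both KO libraries and all 9 with KO-2 alone.

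Of 12 fatty acid oxidation genes, 10 passed the adjusted p as higher and 5 of these were called, 1 with KO-1 alone, 10 with KO-2 alone and 3 without WT-2. Pdk4, which holds back glucose oxidation, rose from 482 ± 47.7 (SD, n = 4) to 1088 in KO-1 and 3050 in KO-2 (DESeq2 adjusted p = 1.75e-08) and was called in each alone. The dehydrogenase Acadl rose from 1792 ± 244 to 2528 and 6551 (DESeq2 adjusted p = 0.000417), and Hadhb, of the trifunctional protein, from 1049 ± 101 to 1584 and 2699 (DESeq2 adjusted p = 0.000381). KO-1 was above every WT library for 11 of the 12 genes, where 31.3% of all tested genes were, and KO-2 for all 12, where 32.8% were. Oxidation genes are also strongly expressed in heart muscle, and the part of the cardiac markers of KO-1 in these values was not tested.

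Among 4 secreted factors of brown fat DESeq2 and edgeR called 0 over both KO libraries, with 2 higher at an unadjusted p under 0.05. Nrg4 had 15.4 to 33.4 in WT, 10.6 in KO-1 and 193 in KO-2 (DESeq2 adjusted p = 0.0893) and was called with KO-2 alone. Bmp8b had 0 counts in WT, 2.28 in KO-1 and 13.5 in KO-2. Metrnl had 402 to 508 in WT, 435 in KO-1 and 348 in KO-2, and Fgf21 had 0 counts in every library.

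Of 7 genes of preadipocytes and adventitial progenitors, 1 was called higher, Dpp4, which rose from 111 ± 31.3 (SD, n = 4) to 200.3 in KO-1 and 355 in KO-2 (DESeq2 adjusted p = 0.00532). The progenitor and endothelial antigen Cd34 passed the adjusted p with less than a 2-fold change, from 3684 ± 377 to 6360 and 5062 (DESeq2 adjusted p = 0.00761). The receptor Pdgfra had 1935 to 2645 in WT, 3544 in KO-1 and 2421 in KO-2 (DESeq2 adjusted p = 0.22). For Cd34 and Pdgfra, as for Dio2, the level in KO-1 exceeded that in KO-2.

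**Figure D5:**
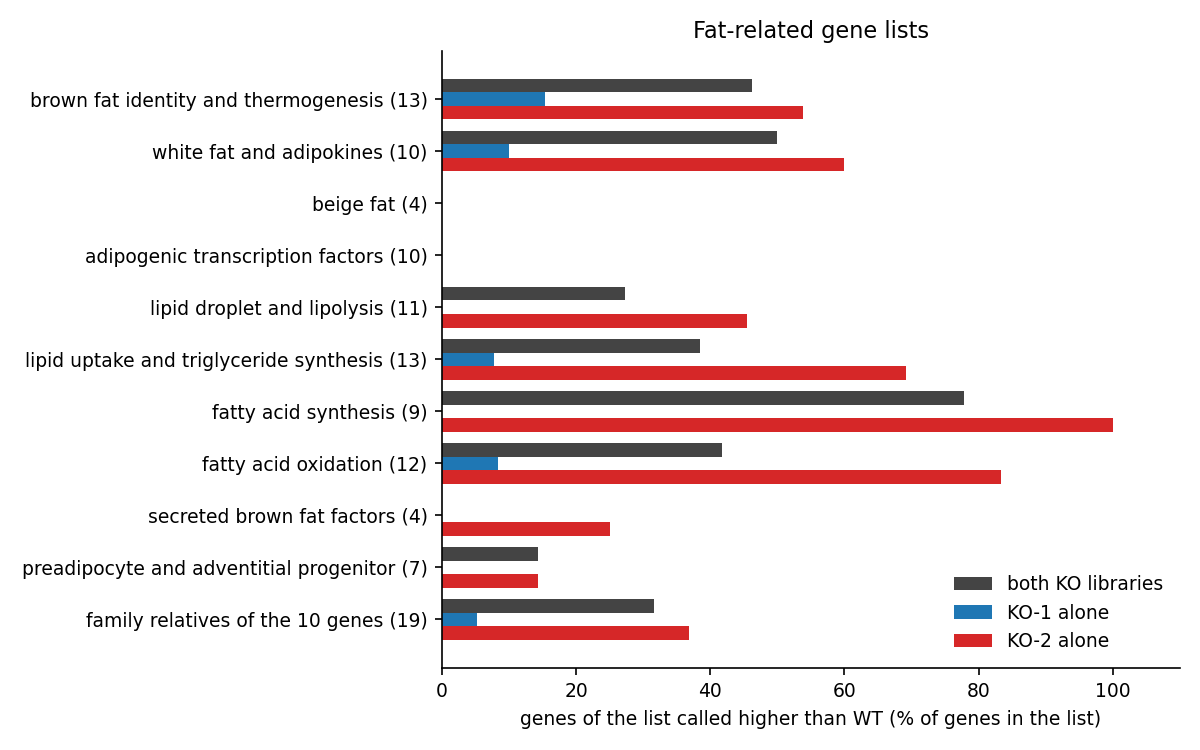
Share of each list's genes called higher than WT (DESeq2 adjusted p under 0.05 and more than 2-fold) with both KO libraries, KO-1 alone and KO-2 alone, with the number of genes of each list in brackets. All 9 fatty acid synthesis genes were called with KO-2 alone and 0 with KO-1 alone, and the beige fat and adipogenic transcription factor lists had 0 calls of higher genes.

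Of 19 relatives of the 10 genes, 6 were called higher over both KO libraries, 1 with KO-1 alone and 7 with KO-2 alone. Without WT-1 there were 2, without WT-3 there were 3, and without WT-2 or WT-4 there were 4. Ucp3, the muscle relative of Ucp1, rose from 8.78 ± 5.78 (SD, n = 4) to 17.5 in KO-1 and 283 in KO-2 (log2 fold change 4.09 ± 0.86, SE, DESeq2 adjusted p = 9.49e-05). Fabp5, the epidermal relative of Fabp4, rose from 140 ± 12 to 187 and 851 (DESeq2 adjusted p = 0.000661). Of the other deiodinases, Dio1 had 0 counts in every library and Dio3 at most 4.49.

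Genes with a pattern close to that of Adipoq were sought among the 12568 genes whose normalised counts averaged 50 or more, by the root mean square difference of log2 values, each less its own WT mean, over the 6 libraries. The nearest were Ankef1 (0.16), Sh2b2 (0.19), Cidec (0.21), Reep6 (0.22) and Car3 (0.25). Cidec, the relative of Cidea that fuses lipid droplets in white fat, had 183, 400, 238 and 167 in WT, 270.1 in KO-1 and 1820 in KO-2. Among the 10 genes, Fabp4 (0.22) and Plin1 (0.27) were as near to Adipoq, followed by Pparg (0.37), Cidea (0.46), Lep (0.49), Ppargc1a (0.78), Dio2 (1.05), Elovl3 (2.31) and Ucp1 (3.14). The order describes these 6 libraries, in which KO-2 carries most of the range, and the place of Ucp1 also rests on its 0 count in WT-4.

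None of the 12568 genes came as near to Ucp1. Its 0 count in WT-4, set by the pseudocount of 0.5, weighs heavily in these differences. The SD of the log2 values over WT was 3.93 for Ucp1 and 0.564 for Adipoq. The smallest differences were those of Lctl (1.59), Ucp3 (2.34), Clstn3 (2.35), Gm44503 (2.36) and Apoc1 (2.64), and the nearest of the 10 genes was Plin1 (3.08). Lctl, a relative of the klotho proteins, had 20.9, 25.1, 7.99 and 0 in WT, 22 in KO-1 and 296 in KO-2. Like Ucp1, Lctl and Gm44503 had 0 counts in WT-4. Gm44503 had 86.8, 130, 115 and 0 in WT, 58.4 in KO-1 and 124 in KO-2, so it was low in WT-4 and KO-1 as Ucp1 was, without the high value in KO-2.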

How the data were processed

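RNA of 6 thoracic aortas, 4 WT and 2 KO, was sequenced. The authors trimmed reads with Trim Galore, aligned them to GRCm38 with HISAT2 and ran StringTie with GENCODE M15 annotation. They deposited estimated counts for each gene, as whole numbers without scaling for depth. How coverage became whole numbers and whether strand was used are not given in the sources used here, so genes overlapping on opposite strands can share reads. Of 52636 identifiers, 52489 matched GENCODE M21, which gave positions and exon lengths.

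DESeq2 1.42.0 in R 4.3.3 compared KO with WT over all genes (Wald test, group as the only term). A call needed more than a 2-fold change and an adjusted p-value (Benjamini-Hochberg) under 0.05, as in the study. A normalised count is the count over the DESeq2 size factor of its library. Log2 differences of single libraries used a pseudocount of 0.5, and 3 counts were taken as the floor. Each KO library was also tested with the other left out. Alternatives were edgeR 4.0.16 (quasi-likelihood) with or without filtering of low counts, TMM factors, total counts, no independent filtering, a minimum mean normalised count of 10, mitochondrial genes left out, a replicate block and each library left out; edgeR on single KO libraries was added after seeing the data. The fits were tested on simulated data, with the same spread for every gene and the same changes in both KO libraries. That setting is unlike these data, in which the KO libraries differed more than any pair of WT libraries.

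The 10 genes and the lists were chosen with earlier results of these data known. All 10 genes are named, with the 3 genes of smallest adjusted p in each list (all of a list of up to 5), the 5 nearest Ucp1 and the 5 nearest Adipoq; cell type markers are given as ranges of sums. Other genes were named after their values were seen. No pair of libraries of a group agreed within sampling noise. The study gives 4 WT and 2 KO mice for this sequencing, which equals the number of libraries, so each library was taken as 1 mouse; the labels themselves do not name the mice.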

Additional observations from a re-analysis of the deposited data

Results flagged for a closer look

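In 55 sets of 4 WT values (the 10 genes, the named list genes, the 10 marker sums and the mitochondrial share), a WT library standing apart from the other 3 by Dixon's criterion was sought, and chance alone gives about 2.75. It was found for 3 genes. Elovl3 had a normalised count of 3.13 in WT-4 and 0 in the other 3 WT libraries. Slc7a10 had 8.79 in WT-1, against 15 to 16.2 in the others. Cited1 had 5.49 in WT-1 and 0 in the others. All 3 values rest on few counts. Ucp1 in WT-4, at 0 against 101 to 123 in the other 3, came close, with a gap of 0.818 of the range of WT, just under the critical value.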

How the results depend on the processing

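The log2 fold changes of the 10 genes gave 139 comparisons with alternative fits. Of these, 110 kept direction and side of the threshold, 23 lost the threshold, 3 gained it and 3 reversed. All 3 reversals came with KO-2 left out. With 1 library left out, the log2 fold change ran from -1.09 to 6.31 for Ucp1, from -2.48 to 9.04 for Elovl3 (KO-1 and WT both being at the floor without KO-2) and from -0.037 to 2.39 for Lep. The 6 genes called, and the 6 past the adjusted p alone, became 3 and 3 under edgeR with a filter, and ran from 1 to 8 and from 1 to 8 with 1 library left out. The 962 genes called among all genes became 633 under edgeR with a filter and ran from 636 to 1284 with 1 library left out. TMM factors, total counts, edgeR without a filter, the minimum mean and leaving out mitochondrial genes changed no call among the 10 genes. Without independent filtering Cidea was lost (DESeq2 adjusted p = 0.0507). Of 308 list counts under the alternatives, 42 moved by over 1.5 times, and 3 of 100 single-library differences moved by more than the WT spread.

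With the replicate number as a block 561 genes were called, and 4 of the 10. Cidea, Fabp4 and Ppargc1a were lost (DESeq2 adjusted p = 0.589, 0.468 and 0.154) and Adipoq was gained (0.0065). Deviations of same-numbered libraries correlated at -0.07 and 0.01 over genes, and nothing in the labels pairs them, so the numbers were not taken as a pairing. The 2 KO libraries differed more than any pair of WT libraries, and low counts limit Elovl3 and Lep.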
